A study of Mus musculus with 2 samples.

Results

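The genes described here are 36 antiviral interferon-stimulated genes, read in mouse chondrocyte micromass cultures given either a Cre adenovirus or a control adenovirus. The members are a list, by name, of sensors, transcription factors, modifiers and effectors of the interferon response. They were chosen with earlier results of these data known. Each was found in the deposited table by the gene symbol that follows the chromosome in each row name. All 36 of 36 were in the table of 13138 genes, and all 36 passed a minimum mean of 50 on the count scale, as did 12809 genes in all.

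Primary chondrocytes, the cells of cartilage, were grown outside the animal as micromass cultures, in which cells are seeded densely in a drop and lay down cartilage-like matrix. One culture received an adenovirus carrying Cre recombinase and bears the label hdac3-knockout. The second culture, labelled wild-type, was given a GFP (green fluorescent protein) adenovirus as the control. Both are of strain C57Bl/6, and by their transduction labels both groups received an adenovirus. The labels give no age, no viral dose, no time after transduction and no number of animals or dishes. Each group has 1 library of polyadenylated RNA (Illumina TruSeq v2 mRNA kit), so no difference has a replicate check, no p-value is given, and a difference describes 1 pair of libraries rather than the conditions.

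Type I interferons bind the IFNAR1 and IFNAR2 receptor chains, whose kinases JAK1 and TYK2 phosphorylate STAT2. With IRF9 it forms part of a complex that binds the interferon-stimulated response element (ISRE) in the promoters of interferon-stimulated genes, whereas interferon gamma acts mainly on the gamma-activated site (GAS). The products include cytosolic RNA and DNA sensors, transcription factors that sustain the response, and proteins that block viral entry, translation, replication or release.

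RefSeq promoter windows on GRCm38.p6, from 250 bases before to 50 bases after each annotated start site, were matched by symbol for 25 of the 36 members. The windows were searched for ISRE letters, GAAANNGAAA or TTTCNNTTTC on the other strand, and for GAS letters, TTCNNNGAA, which read the same on both strands. ISRE letters stood in the windows of 11 of 25 members (44.0%), against 329 of 9157 compared genes with a window (3.59%). Over all genes of the RefSeq promoter set, in the expression table or not, it was 1079 of 27025 (3.99%). GAS letters stood in the windows of 7 of 25 members (28%), against 766 of 9157 compared genes (8.37%) and 9.55% of all genes of the RefSeq promoter set. A match says only that the letters are present in the window.

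The following stretches are the 250 bases before 1 annotated start site of each gene, read 5′ to 3′ on the gene's strand, with ISRE or GAS letters in capitals. Isg15, Ifit1 and Rsad2 are shown because they have a match and are among the 6 members with the largest difference. The rest of those 6 are not shown: Ifi44 (0.83) and Irf7 (0.78) had neither kind of letters in their windows, and Zbp1 (0.77) had no window. Stat2 and Irf1 are shown because they are transcription factors with a match. Ifit2 and Ifit3 were added after their values were seen, because they neighbour Ifit1 on chromosome 19 and differ from it in their values.

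Isg15 (chr4:156200819-156201068, minus strand): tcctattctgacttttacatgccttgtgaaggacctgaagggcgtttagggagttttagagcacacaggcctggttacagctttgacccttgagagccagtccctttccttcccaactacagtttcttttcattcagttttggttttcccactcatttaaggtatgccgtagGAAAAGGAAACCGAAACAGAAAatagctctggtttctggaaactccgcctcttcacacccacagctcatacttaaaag

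Ifit1 (chr19:34640639-34640888, plus strand): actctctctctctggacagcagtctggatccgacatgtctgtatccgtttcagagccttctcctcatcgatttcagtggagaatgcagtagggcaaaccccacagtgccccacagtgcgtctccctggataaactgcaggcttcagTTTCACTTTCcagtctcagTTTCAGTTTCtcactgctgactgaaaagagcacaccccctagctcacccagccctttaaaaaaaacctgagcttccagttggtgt

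Ifit3 (chr19:34583279-34583528, plus strand): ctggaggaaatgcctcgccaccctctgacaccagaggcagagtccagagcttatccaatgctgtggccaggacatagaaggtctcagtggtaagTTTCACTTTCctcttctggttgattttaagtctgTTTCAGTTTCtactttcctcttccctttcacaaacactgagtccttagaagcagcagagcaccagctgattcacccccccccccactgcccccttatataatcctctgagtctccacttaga

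Ifit2 (chr19:34550444-34550693, plus strand): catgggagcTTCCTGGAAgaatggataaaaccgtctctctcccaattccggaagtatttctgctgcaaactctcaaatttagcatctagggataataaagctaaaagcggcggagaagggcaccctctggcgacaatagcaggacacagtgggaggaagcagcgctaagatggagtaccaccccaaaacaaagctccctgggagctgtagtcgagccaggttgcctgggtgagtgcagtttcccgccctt

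Rsad2 (chr12:26456453-26456702, minus strand): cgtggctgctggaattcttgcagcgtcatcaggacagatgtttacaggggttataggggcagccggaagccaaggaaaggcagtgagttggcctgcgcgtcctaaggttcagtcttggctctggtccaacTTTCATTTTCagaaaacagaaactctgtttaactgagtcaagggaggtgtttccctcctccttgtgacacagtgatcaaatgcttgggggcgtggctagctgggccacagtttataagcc

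Stat2 (chr10:128270248-128270497, plus strand): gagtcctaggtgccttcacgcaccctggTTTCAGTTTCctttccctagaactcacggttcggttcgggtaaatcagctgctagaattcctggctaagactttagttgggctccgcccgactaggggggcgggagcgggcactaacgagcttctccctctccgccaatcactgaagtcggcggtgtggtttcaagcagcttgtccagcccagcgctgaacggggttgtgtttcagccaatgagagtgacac

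Irf1 (chr11:53769764-53770013, plus strand): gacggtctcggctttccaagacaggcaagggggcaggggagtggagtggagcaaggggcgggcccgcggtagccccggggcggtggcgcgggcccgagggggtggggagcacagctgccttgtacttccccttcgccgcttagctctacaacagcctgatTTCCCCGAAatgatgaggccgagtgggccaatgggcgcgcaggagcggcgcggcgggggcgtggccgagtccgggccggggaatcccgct

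Isg15 holds 3 ISRE matches that overlap each other, starting 78, 72 and 66 bases before the start site. Ifit1 holds 2, at 104 and 85 bases, and Ifit3 holds 2, at 156 and 122 bases, with the same letters as Ifit1 in each pair. Rsad2 has 1 at 120 bases and Stat2 1 at 222 bases before its start. Irf1 and Ifit2 have 2 windows each, of which 1 is printed. The printed stretches show GAS letters, at 90 bases for Irf1 and 241 bases for Ifit2. No window of these genes held ISRE letters. In the sensor genes Ddx58 and Ifih1 the ISRE letters lie just after the start site, from base 3 and base 33 of the transcript, in these short stretches.

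Ddx58 (chr4:40239804-40239833, minus strand): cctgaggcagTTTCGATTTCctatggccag

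Ifih1 (chr2:62646206-62646233, minus strand): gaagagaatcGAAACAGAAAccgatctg

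**Figure D1:**
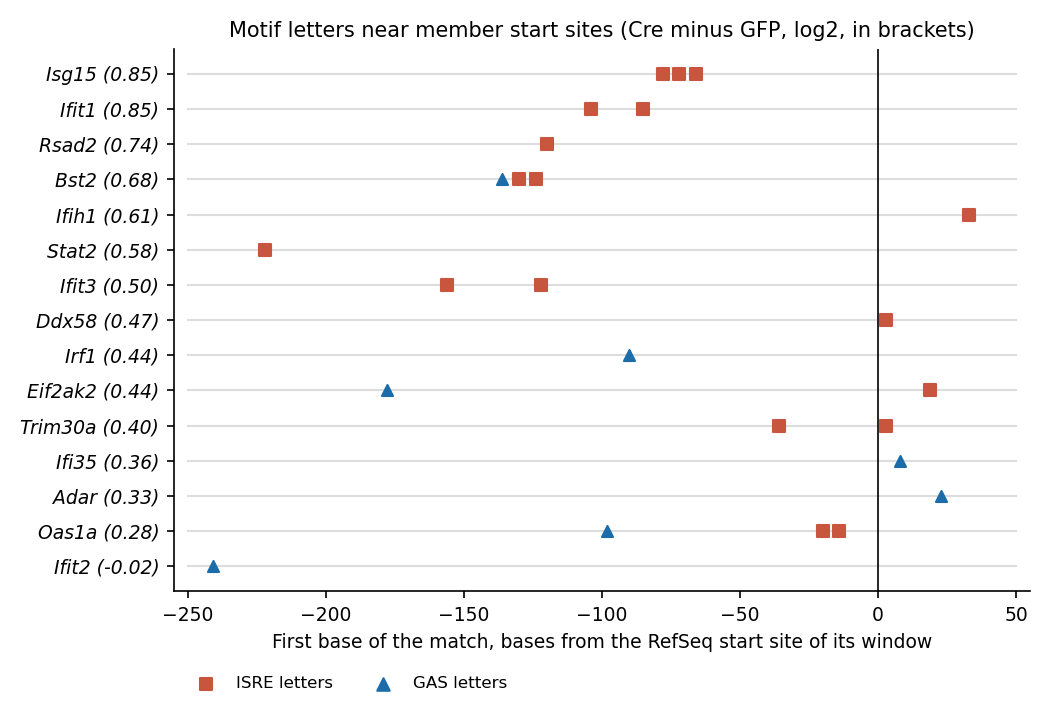
Positions of ISRE letters (squares) and GAS letters (triangles) in RefSeq windows from 250 bases before to 50 bases after the start site, for the 15 members with a match. The horizontal axis is the distance of the first base from the start site of its window, and rows are ordered by the difference between the libraries, from Isg15 at 0.85 to Ifit2 at -0.02.

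Values below are the deposited log2 normalised counts, and differences are Cre minus GFP on that log2 scale. Hdac3, the targeted gene, read 10.68 in the Cre-labelled library and 10.69 in the GFP-labelled library, so the total over the gene did not mark a knockout, and both libraries are referred to by label. Which exons are flanked for removal is not given in the sources used here. The 12 cartilage markers ranged from Chad, at 8.92 in the Cre-labelled library and 8.88 in the GFP-labelled one, to Col2a1 at 19.97 and 20.35, both chosen after their values were seen. Of these 12, 11 lay lower in the Cre-labelled library (median -0.48), by the most for Matn3 (-0.89), Acan (-0.83), Hapln1 (-0.77) and Matn1 (-0.66).

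Antiviral interferon-stimulated genes were moderately higher in the Cre-labelled library, with few exceptions. Of 36 members, 34 lay above 0 and 2 below, where 49.9% of all 12809 genes lay above 0. Their median difference was 0.48, with quartiles of 0.38 and 0.65 and a range from -0.02 for Ifit2 to 0.85 for Isg15, and the median over all genes was 0.00. Higher by at least 0.32 on the log2 scale were 31 of 36 (6.02% of all genes), and at least 1.5-fold higher 13 of 36 (2.25% of all genes). None was 2-fold higher, a size reached by 94 genes, 0.734% of all. None was lower by 0.32 (4.36% of all genes), 1.5-fold (0.952%) or 2-fold (0.0703%). On the linear scale, as 2 to the power of the deposited values, the members summed to 35433 in the Cre-labelled library and 24758 in the GFP-labelled library. That is a ratio of 1.43. The transform of the deposited values is not stated, so such linear values are not read counts.

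**Figure D2:**
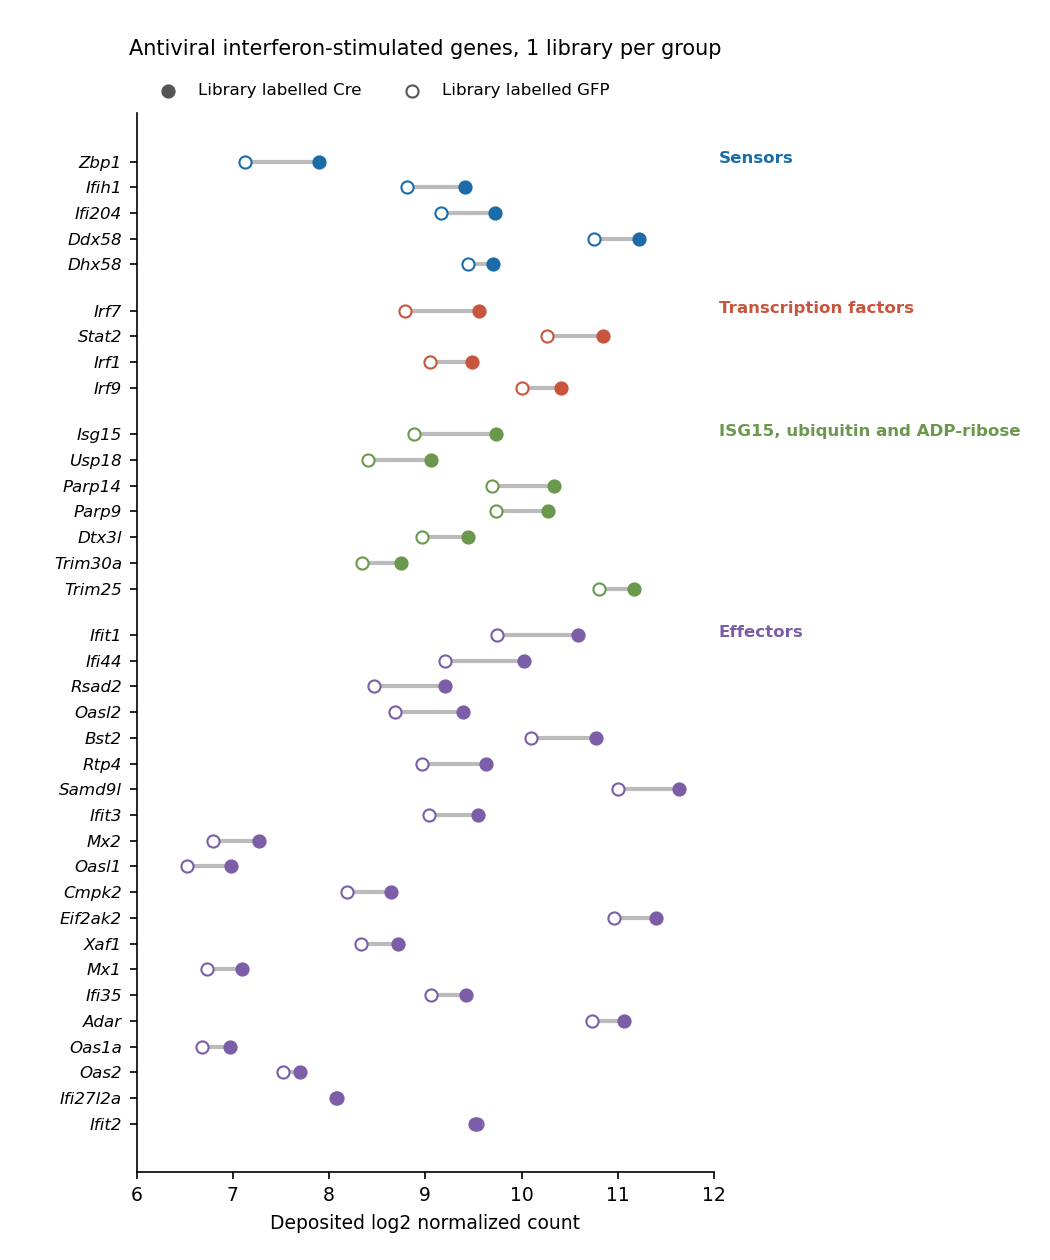
Deposited log2 normalised count of each of the 36 members in the Cre-labelled library (filled) and the GFP-labelled library (open), ordered within each role by the difference. The filled point lies to the right for 34 genes, while Ifit2 and Ifi27l2a have overlapping points.

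Members listed as sensors of foreign nucleic acid were higher in 5 of 5 cases, with a median difference of 0.55. Zbp1, which binds Z-form nucleic acid and can start necroptosis, read 7.90 in the Cre-labelled library and 7.13 in the GFP-labelled library. It showed the largest difference among sensors (0.77, 1.70-fold) although it is one of the least abundant members. Ifih1 encodes MDA5, which detects long double-stranded RNA, and read 9.41 against 8.81 (0.61, 1.52-fold). Ifi204, a DNA-binding protein gene of a cluster of similar copies, read 9.72 against 9.16 (0.55). Ddx58 encodes RIG-I, which detects RNA with a 5′ triphosphate, and was the most abundant sensor by normalised count, at 11.22 against 10.75 (0.47, 1.38-fold). Dhx58 encodes LGP2, a related helicase without the signalling domains of RIG-I and MDA5. Its values of 9.70 and 9.44 gave the smallest difference of the 5 (0.26, 1.20-fold).

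Transcription factors of the response were higher in 4 of 4 cases, with a median of 0.51. Irf7, the factor that amplifies interferon alpha transcription, read 9.56 in the Cre-labelled library against 8.79 in the GFP-labelled library, a difference of 0.78 (1.71-fold). Stat2 read 10.85 against 10.27 (0.58, 1.49-fold), just short of the 1.5-fold threshold. Its DNA-binding partner Irf9 read 10.41 against 10 (0.40). Irf1, a factor induced by interferon gamma and by NF-kappaB signalling, read 9.49 against 9.05 (0.44). The difference of Irf7 was thus the largest of these 4, and the other 3 lay between 0.40 and 0.58. Irf3, which is a constitutive factor and not a member, read 9.69 and 9.62, a difference of 0.07.

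Genes of ISG15 conjugation, ubiquitin and ADP-ribosylation were higher in 7 of 7 cases, with a median of 0.54. Isg15, a ubiquitin-like protein that is attached to other proteins and also secreted, lies on chromosome 4 from 156199424 to 156200818 and had the largest difference of all 36 members. It read 9.74 in the Cre-labelled library and 8.88 in the GFP-labelled library, 1.81-fold. Usp18, the protease that removes ISG15 and also damps signalling at IFNAR2, read 9.06 against 8.41 (0.65, 1.57-fold). The transcripts of both genes were thus higher in the same library. Trim25, a ubiquitin ligase that acts on RIG-I, read 11.17 against 10.81 (0.36). Trim30a, a TRIM-family gene with similar neighbouring copies, read 8.75 against 8.34 (0.40).

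Parp9, Dtx3l and Parp14 lie together on chromosome 16. PARP9 and the ubiquitin ligase DTX3L act as a pair, and their genes are divergent, with annotated start sites 681 bases apart and exons that overlap by 9.40% of Parp9 and 8% of Dtx3l. Parp9 read 10.28 against 9.74 (0.54, 1.46-fold) and Dtx3l 9.44 against 8.97 (0.47, 1.38-fold). Parp14, a mono-ADP-ribosyltransferase gene 67.6 kb away by start site, read 10.34 against 9.69 (0.64, 1.56-fold). All 3 were higher in the Cre-labelled library, and the strand setting of the counting is not given in the sources used here, so reads in the overlap cannot be assigned.

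Effectors made up 20 of the members and included Ifit1, second of all members by difference, and both genes that lay below 0. Their median was 0.45, 18 of them lay above 0, and 7 reached 1.5-fold. The IFIT genes on chromosome 19, whose products bind viral RNA and restrain translation, differed among themselves. Ifit1 (34640871 to 34650009) read 10.59 in the Cre-labelled library and 9.75 in the GFP-labelled library, 1.8-fold. Ifit3 (34583531 to 34588731) read 9.55 against 9.04, 1.42-fold. Ifit2 (34550694 to 34576419) read 9.52 against 9.54, a fold of 0.989. The start sites of Ifit2 and Ifit3 lie 32.8 kb apart and those of Ifit3 and Ifit1 57.3 kb apart, so the 3 genes are neighbours on the same strand. The IFIT genes resemble each other in sequence, and how multiply aligned reads were handled is not given in the sources used here.

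The other exception was Ifi27l2a, a small interferon-induced protein gene on chromosome 12, at 8.07 in the Cre-labelled library and 8.08 in the GFP-labelled library. Its mean of 8.07 is well above the minimum of 5.64. Per kilobase of exon, on the linear scale, it was the third most abundant member, at 581, after Bst2 (1530) and Isg15 (840).

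The OAS genes encode enzymes that make 2′-5′ oligoadenylate, the activator of the nuclease RNase L, and relatives that lack this activity. Oasl2 read 9.39 against 8.69 (0.70, 1.62-fold), and Oasl1, a relative that restrains IRF7 translation in mice, read 6.98 against 6.52 (0.46). Oas1a read 6.97 against 6.68 (0.28) and Oas2 7.70 against 7.52 (0.17, 1.13-fold). Oas2 was the smallest positive difference among the 36. Of the 4 genes, 3 had a mean log2 value under 8, and Oasl2 was both the most abundant and the most different. The dynamin-like GTPase genes Mx1 and Mx2, of a family whose active proteins trap viral ribonucleoproteins, were also of low abundance, at 7.10 against 6.73 (0.37) and 7.27 against 6.79 (0.48). In many laboratory strains, C57Bl/6 among them, Mx1 carries a deletion that removes function, and GENCODE types Mx2 as a polymorphic pseudogene, so neither transcript level stands for active protein.

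Rsad2 and Cmpk2 are divergent neighbours on chromosome 12 with start sites 12.8 kb apart. Rsad2 encodes viperin, which makes a chain-terminating nucleotide, and read 9.21 against 8.47 (0.74, 1.68-fold). Cmpk2, a mitochondrial nucleotide kinase gene, read 8.64 against 8.19 (0.45, 1.37-fold). Bst2, or tetherin, holds budding virus at the cell surface and read 10.77 against 10.10 (0.68, 1.60-fold). Of all members it had the highest level per kilobase of exon, above 93.6% of the compared genes with a gene model. Bst2 is also expressed by plasmacytoid dendritic cells, and their marker Siglech was not in the table used here. No detection limit can be given, so a gene missing from the table may still have been expressed. The part of such cells in the Bst2 values was not tested.

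Among effectors that act on translation and RNA, Eif2ak2 (the kinase PKR, which halts translation on double-stranded RNA) read 11.40 against 10.96 (0.44). Adar, which edits adenosine to inosine in double-stranded RNA and so limits sensing of the cell's own transcripts, read 11.06 against 10.73 (0.33), with 16.8% of its exon bases shared with Chrnb2 on the other strand. Samd9l, a large cytosolic restriction factor gene, was the most abundant member by normalised count, at 11.64 against 11 (0.64, 1.56-fold). Ifi44 was the third in order of difference, at 10.03 against 9.21 (0.83, 1.77-fold). Rtp4, a transmembrane chaperone gene, read 9.63 against 8.97 (0.66), with 13.9% of its exon bases shared with the annotated gene Gm45338 on the same strand. Xaf1, a pro-apoptotic factor gene, read 8.72 against 8.33 (0.39) and Ifi35 9.42 against 9.06 (0.36), the latter with 16.8% of its exon bases shared with Gm11626 on the other strand. All 7 were higher in the Cre-labelled library, by folds from 1.26 to 1.77.

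The roles thus had close medians: 0.55 for sensors, 0.51 for transcription factors, 0.54 for the ISG15, ubiquitin and ADP-ribose group and 0.45 for effectors. Their summed linear values differed by ratios of 1.39, 1.45, 1.44 and 1.44 in the same order. The order of the medians depended on abundance. At a minimum mean 10 times higher, effectors had the highest median, 0.64 over 11 genes. Sensors then had 0.51, transcription factors 0.51 and the ISG15, ubiquitin and ADP-ribose group 0.54. With 1 library per group, differences between roles were not tested.

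Difference and abundance were only loosely related across members. Over the 36 genes, which share the same 2 libraries, Pearson's r between the difference and the mean log2 value was 0.19 and Spearman's rho 0.15. The 6 members with a mean from 5.64 to 8 had a median of 0.41, the 6 from 8 to 9 a median of 0.43, the 13 from 9 to 10 a median of 0.55 and the 11 at 10 or more a median of 0.54. In the same bins, the medians over all genes were 0.00, 0.01, 0.01 and -0.01. The 95th percentile of single genes in those bins was 0.32, 0.38, 0.36 and 0.39, so low-abundance genes spread less on this scale. Against genes with a mean within 0.5 of its own, 28 of 36 members stood at or above the 95th percentile of single-gene differences. Zbp1 stood at percentile 99 and Oasl1 at 98.6, although neither is abundant. Ifit2 stood at 39.8, Ifi27l2a at 45.4, Oas2 at 83.4 and Dhx58 at 91.5.

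**Figure D3:**
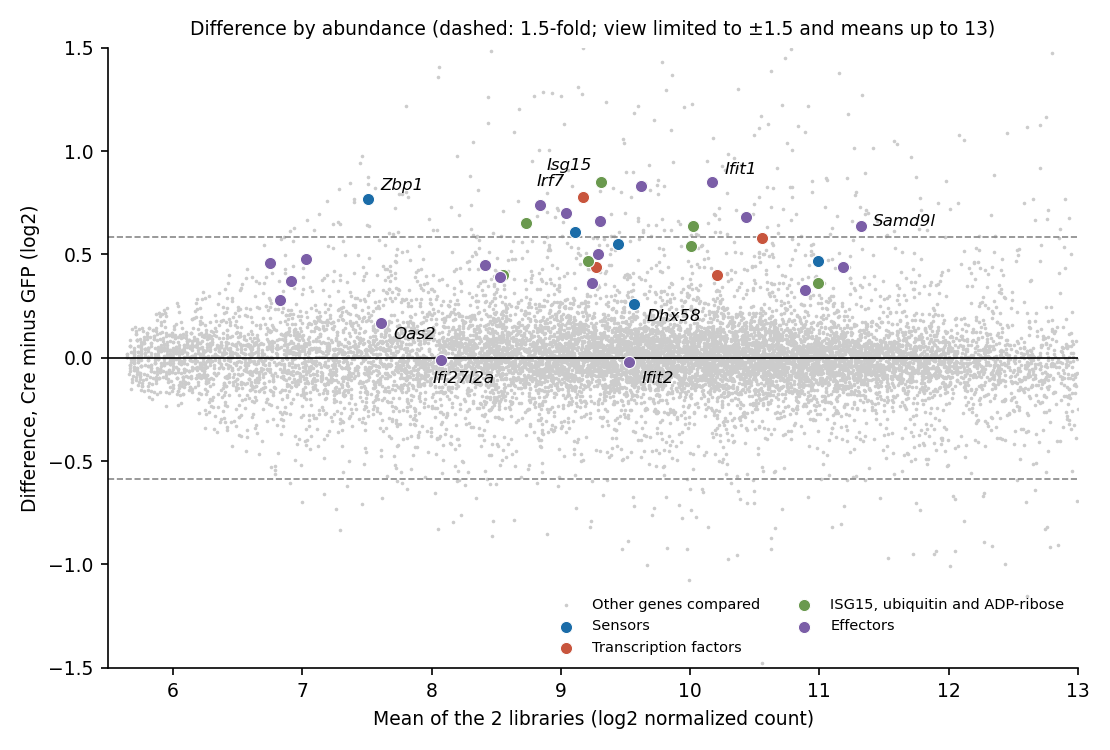
Difference between the libraries (Cre minus GFP, log2) against the mean log2 normalised count for the members (coloured by role) and all other compared genes (grey), with dashed lines at 1.5-fold. The members lie between -0.02 and 0.85 at means from 6.75 to 11.32, and 13 of 36 lie above the upper dashed line.

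Members with ISRE letters in their window differed by a median of 0.58 over 11 genes, from 0.28 for Oas1a to 0.85 for Isg15 and Ifit1. Those with a window but no such letters had a median of 0.44 over 14 genes, from -0.02 for Ifit2 to 0.83 for Ifi44, and the 11 without a window a median of 0.54. The ranges overlap, and Irf7 (0.78) and Ifi44 were high with no match in their windows. The 7 members with GAS letters had a median of 0.36, from -0.02 to 0.68. The 18 with a window but no GAS letters had a median of 0.54, from 0.36 to 0.85, so these ranges overlap too. Oas1a, Bst2 and Eif2ak2 hold both kinds of letters, so the 7 are not a group with GAS letters alone.

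Upstream of the members, the interferon genes themselves were not read: none of 17 listed ligand genes, Ifnb1 among them, was in the table used here, whose lowest mean log2 value is 5.0. Of 9 genes for interferon receptors and their kinases, 8 were compared. All 8 lay above 0 with a median of 0.19, and 0 were 1.5-fold higher. Ifnar2 read 10.86 against 10.36 (0.49), Jak2 11.62 against 11.22 (0.40), Ifngr2 10.97 against 10.59 (0.38) and Il10rb 9.68 against 9.48 (0.20). Ifnar1, the other chain of the type I receptor, read 11.72 against 11.53 (0.19).

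The list of sensor adaptors and kinases, 18 genes in the table, also holds nucleic acid sensors that are not members. These are Tlr3 (0.29), Aim2 (0.12), Tlr9 (0.09) and Tlr7 (0.01), the last 3 named after their values were seen. Of the 18 genes, 17 lay above 0 with a median of 0.13, and 1 was 1.5-fold higher. That gene was Ikbke, a kinase that activates IRF3 and IRF7 and is itself an NF-kappaB target, at 10.15 against 9.36 (0.79, 1.73-fold). Myd88 (0.43), Tmem173, which encodes STING (0.35), and the RNA receptor gene Tlr3 (0.29) followed, and Mavs, the mitochondrial adaptor of RIG-I and MDA5, read 9.71 and 9.67 (0.05). Of 18 brakes on the pathway, 15 lay above 0 with a median of 0.09. Tnfaip3 (A20) differed by 1.13 and Socs3 by 1.10, both over 2-fold, and the phosphatase genes Ptpn2 and Ptpn1 by 0.66 and 0.57. Tnfaip3 also stands in the list of NF-kappaB targets given below, so it is counted in both lists. Socs1, the main feedback inhibitor of interferon receptors, named after its value was seen, read 7.31 and 7.24 (0.06).

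Interferon-stimulated genes outside the members gave a median of 0.31 over 38 compared genes. All 38 were above 0, and 5 of them reached 1.5-fold. The chemokine gene Cxcl10 led at 1.5, ahead of Ifitm3 (0.86), Slfn2 (0.59) and Lgals3bp (0.59). Guanylate-binding proteins and immunity-related GTPases, which are typical interferon gamma targets, had a median of 0.66 over 11 genes, with Gbp2 at 1.37, Gbp6 at 1.20, Gbp5 at 0.98 and Iigp1 at 0.84. Genes of MHC class I presentation had a median of 0.40 over 16, with H2-Q4 at 0.81, Tapbp at 0.75, H2-K1 at 0.72 and Nlrc5 at 0.59. NF-kappaB targets, a list that includes genes known from these samples to be high and so is no independent evidence, had a median of 1.28 over 19, led by Saa3 (3.40), Lcn2 (3.12), Cxcl1 (2.93) and Cxcl5 (2.84). None of these differences between lists was tested.

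**Figure D4:**
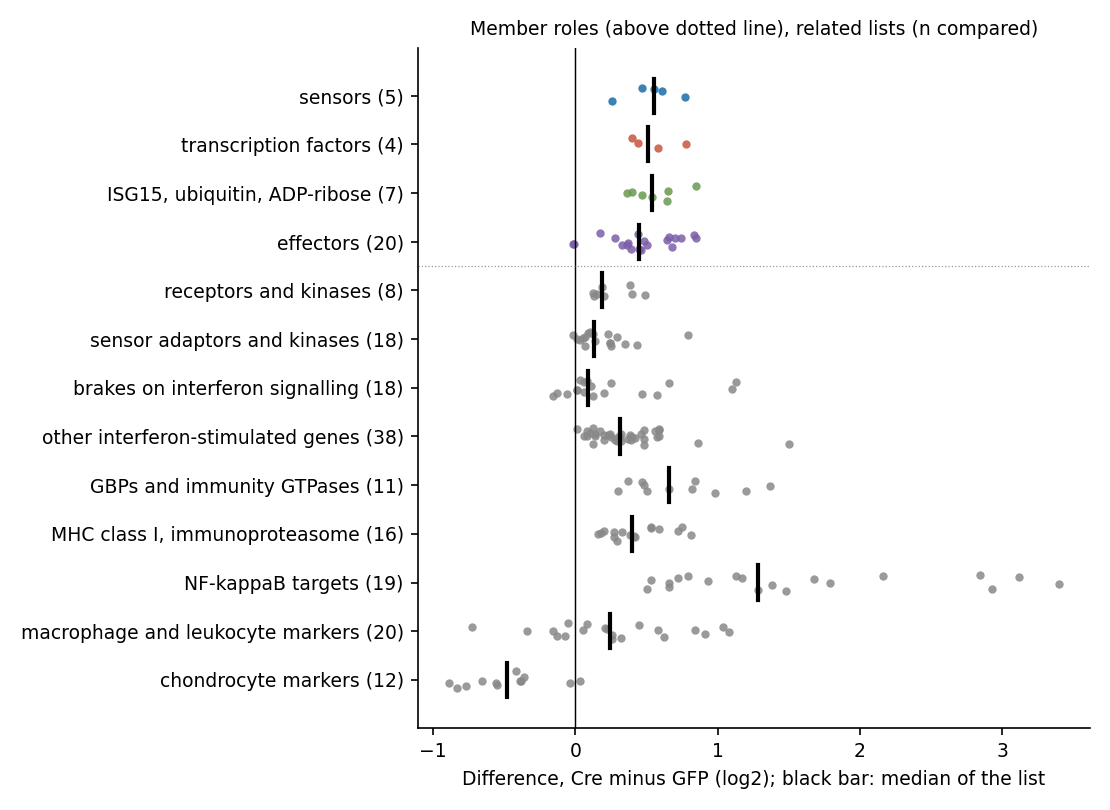
Difference between the libraries (Cre minus GFP, log2) for each gene of the 4 member roles and of 9 related lists, with the median of each list as a black bar and the number of genes in brackets. The member roles have medians from 0.45 to 0.55, the receptors 0.19 and the NF-kappaB targets 1.28. The list of sensor adaptors, which also holds sensors that are not members, has a median of 0.13.

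Markers of macrophages and other leukocytes were present in both libraries and lay on both sides of 0. Of 21 macrophage and leukocyte markers 20 were in the table, 14 lay above 0 and 6 below, with a median of 0.24. Their linear values summed to 60174 in the Cre-labelled library and 41285 in the GFP-labelled library, a ratio of 1.46. Without Lyz2, the most abundant of them, the other 19 summed to 31191 and 25087, a ratio of 1.24, an alternative chosen after seeing the data. The pan-leukocyte gene Ptprc, chosen after its value was seen, read 9.94 against 9.68 (0.26). The markers with the largest absolute differences were Emr1 (1.08), Cd14 (1.04), Lyz1 (0.91) and Lyz2 (0.84), and Mrc1, also chosen after its value was seen, lay at -0.73. None of 9 lymphocyte markers was in the table. In bulk RNA, fewer cells of a type and less RNA per cell cannot be told apart, and the part of immune cells in the interferon-stimulated genes was not tested.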

How the data were processed

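RNA sequencing libraries of 2 cultures, 1 per group, were analysed. HTSeq, TopHat2 2.0.6 and bcl2fastq 1.8.4, with the build mm10, are listed in the submitters' processing notes. The authors deposited log2 values of normalised gene counts, 1 column per library, with their mean and difference. The transform is not stated; the heading rLogFC and the narrow spread at low values point to a regularized log, which would understate differences of low genes. The deposited difference is GFP minus Cre, and its sign was turned here. The values hold no read counts, so depth is unknown and no interval or detection limit can be given.

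The comparison took genes whose mean was 50 or more (5.64 on the log2 scale) and counted them by size alone, at log2 differences of 0.32, 0.58 and 1. With 1 library per group no test was possible. Positions and exon lengths come from GENCODE M21 (GRCm38), which matched 11886 of 13138 genes by symbol and chromosome, and promoters from RefSeq (GRCm38.p6). Of 31 member windows, 27 continued into a GENCODE transcript of the same gene. Python 3.11.15 and pandas 2.3.3 were used, and the counting was tested on simulated data. Every member was named, and of other lists up to 4 genes with the largest absolute difference (none of the endothelial and fibroblast lists), Hdac3, Ifnb1, Ifnar1, Ifnar2, Irf3 and Mavs. Beyond the markers given with the results, endothelial markers had a median of 0.05 over 6 genes and fibroblast markers -0.07 over 8. Members, roles and lists were chosen with earlier results of these data known. A gene of 1 list is not reported here.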

Additional observations from a re-analysis of the deposited data

How the results depend on the processing

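Scaling by the median of all genes or to equal totals raised every difference by 0.00041 or 0.0077, and the members' median stayed at 0.48 under both. Of 46 alternative values, 39 stayed within 0.1 for medians or within 1.5 times for counts. Some of them could not move, so this tally does not measure how stable the results are. Dropping the minimum kept the same 36 members, and the 2 scalings shifted the differences very little. The count of members at least 1.5-fold higher went from 13 to 31 of 36 at a lower threshold of 0.32 on the log2 scale. Under the other settings it ranged from 10 of 24 members, at a minimum 10 times higher, to 14 of 36, at equal totals. Some settings keep fewer members, so a lower count there is not a lower share. A minimum 10 times higher moved the effectors from 0.45 to 0.64 (11 genes), the sensor adaptors from 0.13 to 0.23 and the NF-kappaB targets from 1.28 to 1.43, since it drops genes of low abundance. The mean in place of the median moved the brakes from 0.09 to 0.25 and the NF-kappaB targets to 1.53. Leaving out 11 members of families of similar copies gave a median of 0.54, and leaving out 5 members that overlap another gene, an alternative chosen after seeing the data, 0.48. The count of members at least 2-fold higher was 0 under each of these settings. That outcome was fixed in advance, since the largest difference of a member was 0.85. Pseudocounts and leaving out a replicate were not run, since the values are on a log scale and no group has a second library. No paired analysis was possible because the 2 groups have a single library apiece.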
